A study of Mus musculus with 6 samples.

Results

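The genes described here build and tension the actin cytoskeleton of the cell or carry its state to the nucleus: 37 genes for contractile proteins, tropomyosins, actin crosslinkers, focal adhesion proteins, the transcriptional cofactors YAP and TAZ with their partners and targets, and the factor SRF. They were chosen by gene name, and all 37 were found by symbol among the 27263 genes of the deposited tables. Transcript levels were measured by RNA sequencing in primary bone marrow stromal cells of C57BL/6 mice, which had been sorted from tibia and femur marrow by flow cytometry as positive for Sca-1 and CD29 and negative for CD45 and CD11b, then grown with 10% fetal bovine serum. One group of 3 libraries came from cells given PBS, the buffer control, and the other 3 came from cells given rGCA at 50 nM, both for 3 days. GCA is taken here, from knowledge of the study and not from its labels, to be grancalcin, which binds calcium and is made by myeloid cells; the r is read as recombinant. The labels give no genotype or age. They do not say whether each replicate was its own animal or culture, so a p-value speaks only of the spread among these 6 libraries, and that spread may be technical.

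Actin filaments, crosslinked by filamin and alpha-actinin and pulled by nonmuscle myosin, form the stress fibers that end on integrins at focal adhesions. YAP and TAZ are held in the cytoplasm when LATS kinases phosphorylate them, and in spread, tensed cells they enter the nucleus and act with TEAD factors on genes such as Ccn1, Ccn2 and Ankrd1. Free actin monomers hold back the MRTF cofactors of SRF, which bind CArG boxes in the promoters of many genes of the actin cytoskeleton itself. In marrow stromal cells this machinery is known for its part in the choice between bone and fat fates.

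Values are FPKM, fragments scaled to exon length and to the total of the library. The totals behind them ran from 17543509 to 18645932 fragments per library, so that 1 fragment in a gene of 2 kb was worth 0.0268 to 0.0285 FPKM. Among the 36 genes that reached the test's minimum of 1 FPKM on average, the fewest fragments in a library were 244, for Tead2, and the most were 49694, for Actb, so counting error weighs more on the low genes. Only Tagln, at 8 to 16 fragments, fell below that minimum. Intervals below cover the spread between libraries.

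The promoters of the genes that fell and of a few classical targets are shown because they carry the letters bound by TEAD or SRF. Sequences are from RefSeq on GRCm38.p6, 5′ to 3′ along the gene, and run from 250 bases before to 50 bases after the start site. Capitals mark the TEAD motif GGAATG, or CATTCC where it lies on the other strand, and the CArG box of SRF, which is CC, then 6 letters that are each A or T, then GG. The first set holds the 3 genes that passed the test with lower levels under GCA. The Flna window lies inside the gene's GENCODE span, chrX:74223461-74249820, so its start site is internal to that span. The same is true of the Ankrd1 window, shown further below, in the span chr19:36111961-36120099. The start sites of Acta2, Tpm1 and Myl9 are internal too, though their windows reach past the 5′ end of the span.
Acta2 (chr19:34255324-34255623, minus strand): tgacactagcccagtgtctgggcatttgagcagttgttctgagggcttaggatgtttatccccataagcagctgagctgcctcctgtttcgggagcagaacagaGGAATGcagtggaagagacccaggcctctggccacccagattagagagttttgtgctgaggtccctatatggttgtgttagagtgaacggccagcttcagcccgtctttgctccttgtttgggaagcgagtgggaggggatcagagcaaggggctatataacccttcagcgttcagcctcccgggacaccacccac
Tpm1 (chr9:67049164-67049463, minus strand): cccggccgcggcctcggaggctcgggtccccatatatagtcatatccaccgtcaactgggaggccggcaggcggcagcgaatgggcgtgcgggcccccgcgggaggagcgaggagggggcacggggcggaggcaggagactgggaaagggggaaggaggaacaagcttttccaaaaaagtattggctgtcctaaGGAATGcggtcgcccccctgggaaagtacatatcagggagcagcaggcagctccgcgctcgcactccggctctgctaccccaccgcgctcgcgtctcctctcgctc
Flna (chrX:74246485-74246784, minus strand): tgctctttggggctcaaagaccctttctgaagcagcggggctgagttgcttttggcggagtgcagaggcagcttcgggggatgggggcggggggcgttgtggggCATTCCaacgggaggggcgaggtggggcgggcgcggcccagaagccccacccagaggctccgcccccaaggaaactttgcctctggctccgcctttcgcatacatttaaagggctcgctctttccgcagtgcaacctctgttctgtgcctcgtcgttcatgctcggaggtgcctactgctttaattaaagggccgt

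The next set holds Vcl, with both motifs, Myl9, with a CArG box, and the YAP targets Ccn1 and Ankrd1.
Vcl (chr14:20929148-20929447, plus strand): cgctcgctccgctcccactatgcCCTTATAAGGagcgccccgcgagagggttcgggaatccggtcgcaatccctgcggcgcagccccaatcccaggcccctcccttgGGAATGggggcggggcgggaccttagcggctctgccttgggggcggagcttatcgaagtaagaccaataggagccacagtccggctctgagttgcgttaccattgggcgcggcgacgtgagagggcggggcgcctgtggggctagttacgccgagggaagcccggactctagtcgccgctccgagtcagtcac
Myl9 (chr2:156775214-156775513, plus strand): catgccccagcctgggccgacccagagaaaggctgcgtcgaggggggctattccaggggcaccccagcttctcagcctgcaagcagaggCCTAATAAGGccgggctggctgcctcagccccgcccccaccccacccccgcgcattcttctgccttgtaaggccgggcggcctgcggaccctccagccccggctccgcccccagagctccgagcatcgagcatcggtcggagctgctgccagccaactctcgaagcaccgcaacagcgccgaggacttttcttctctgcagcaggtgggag
Ccn1 (chr3:145649936-145650235, minus strand): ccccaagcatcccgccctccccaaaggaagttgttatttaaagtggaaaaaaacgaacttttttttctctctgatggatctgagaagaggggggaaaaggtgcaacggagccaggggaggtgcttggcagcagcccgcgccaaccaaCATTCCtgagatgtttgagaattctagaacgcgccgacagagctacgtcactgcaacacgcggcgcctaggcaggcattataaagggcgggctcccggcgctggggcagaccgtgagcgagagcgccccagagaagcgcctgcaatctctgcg
Ankrd1 (chr19:36119795-36120094, minus strand): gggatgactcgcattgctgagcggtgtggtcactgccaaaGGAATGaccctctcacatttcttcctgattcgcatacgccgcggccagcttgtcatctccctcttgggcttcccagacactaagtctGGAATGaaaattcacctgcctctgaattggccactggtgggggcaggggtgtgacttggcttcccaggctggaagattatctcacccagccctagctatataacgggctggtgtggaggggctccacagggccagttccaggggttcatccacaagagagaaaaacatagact

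Of the 37 genes, 32 had a promoter in the RefSeq table. Actb, Tagln, Pxn, Tead1 and Ccn2 had none. The TEAD motif was found in the promoters of 15 of the 32 genes (46.9%), against 16.6% of the 27025 genes in the table, in windows of the same length and on both strands. The 15 were Acta2, Actn4, Amotl2, Ankrd1, Cald1, Ccn1, Flna, Flnc, Lats2, Myh10, Tagln2, Tpm1, Vcl, Wwtr1 and Yap1. The CArG box was found in 6 of 32 (18.8%), against 1.81% of all genes: Actg1, Cnn2, Fhl2, Myl9, Srf and Vcl. Vcl alone held both, and there the matches do not overlap. In Acta2 the TEAD motif began 146 bases before the start site, in Tpm1 56 bases, in Flna 146 bases and in Ccn1 103 bases. Ankrd1 held 2 matches, at 210 and 123 bases before its start. Vcl held a CArG box at 227 bases and a TEAD motif at 143 bases before its start, and Srf 2 CArG boxes at 82 and 62 bases. These are matches of letters, not measured binding, and a gene with no match, such as Cnn1, is only one whose window lacks these exact letters. The same holds for Acta2 and the CArG box. Its window has ccctatatgg and ccttgtttgg, which each differ from the pattern by a letter and were not counted. Acta2 is not alone in this, as the Tpm1 window also holds such near matches. The list was chosen for genes known to answer to these factors, so the shares describe the list.

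Acta2, Tpm1 and Flna, which serve contraction and crosslinking, had 14.8% to 20.5% lower means in GCA-treated cells, and the adhesion gene Pxn a 20.6% higher mean. Of the 36 tested genes, 3 fell (Acta2, Tpm1 and Flna), 1 rose (Pxn) and 32 did not pass an adjusted p of 0.05 (limma, over all 11984 genes tested). Among all genes tested 17.9% passed, 6.43% lower and 11.5% higher, so the 3 lower and 1 higher of 36 are few in number, and the share called is not above the background. The median log2 fold change of the 36 was −0.13, against 0.01 for all genes tested, and 29 of the 36 lay below 0, against 48.4% of all genes. In 12 of the 36 every GCA library lay below every PBS library (16.8% of all genes), and in 5 every GCA library lay above (21.6%); groups that did not overlap made up 38.5% of all genes. At an unadjusted p under 0.05 there were 15 of the 36, against 32.8% of all genes. Of these 15, 11 were lower, against 13.7% of all genes that were lower at that p, and the rest were higher. All fold changes are on the log2(FPKM + 1) scale, which understates those of low genes. Quantile normalization and median centring of the libraries gave 6 and 7 lower with 1 higher in each, 19.4% and 22.2% of the 36 against 18.6% and 18.3% of all genes, and over all genes the share of calls that were higher was 53.8% after quantile normalization and 64.2% without it. The median of the 36 was −0.08 without GCA replicate 2. The count of lower genes was 2 without PBS replicate 1 or GCA replicate 2, 1 without PBS replicate 2 or 3 or GCA replicate 1, and 5 on dropping GCA replicate 3. The count of higher genes was 2 without GCA replicate 2.

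**Figure D1:**
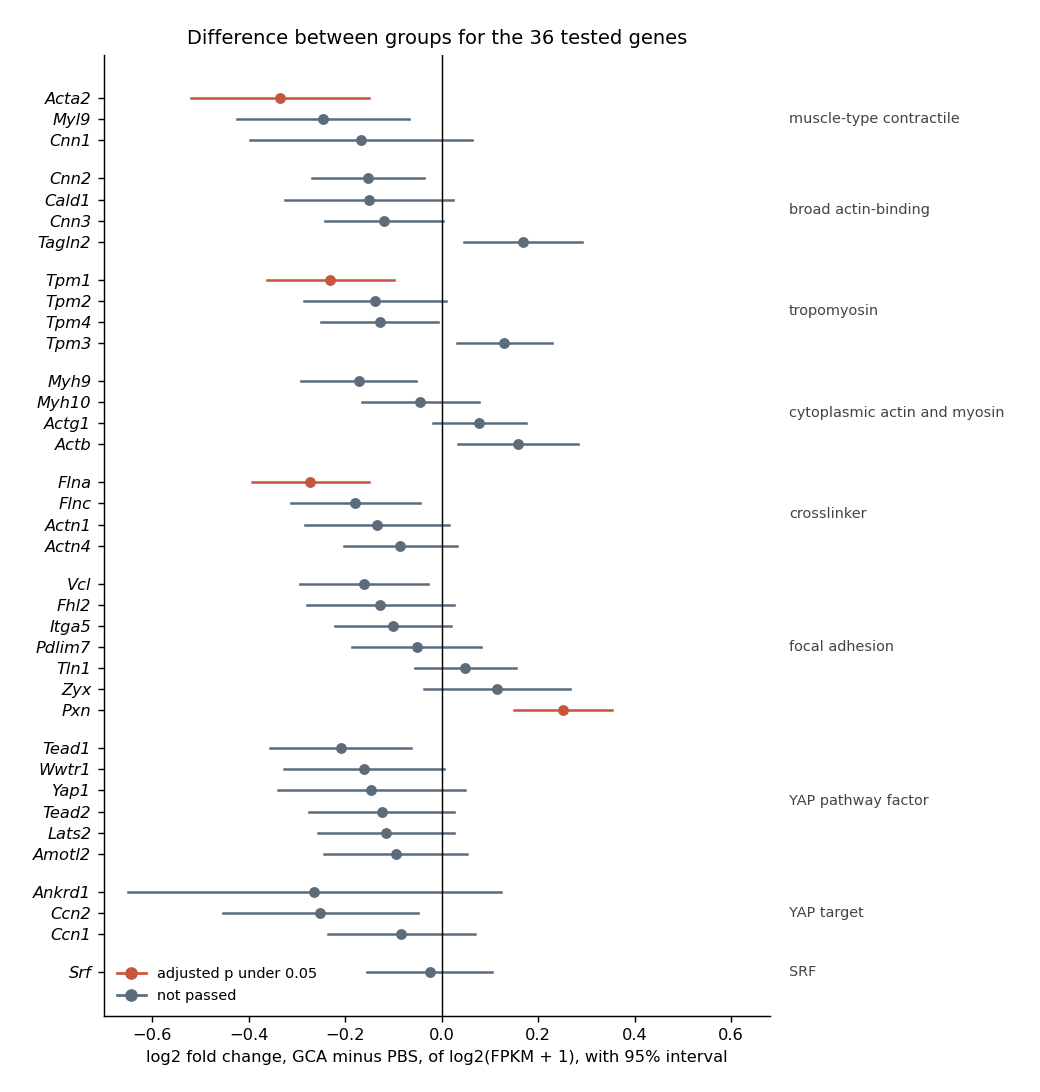
Difference between GCA and PBS for the 36 tested genes, grouped by role. Points are log2 fold changes of log2(FPKM + 1) with 95% intervals from limma; red marks the 4 genes with an adjusted p under 0.05, of which Acta2, Tpm1 and Flna lie left of 0 and Pxn lies right of it.

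These are bulk samples, in which fewer cells of a type and less RNA per cell cannot be told apart. Markers of other cells differed between the groups as well. Their counts stand against 11.5% of all genes tested that passed higher and 6.43% that passed lower. Of 17 tested monocyte and macrophage markers 8 were called higher and 1 lower (Lyz2, the macrophage lysozyme, with a log2 fold change of −0.61, and −0.11 with an adjusted p of 0.438 after quantile normalization). Among those higher were Cd68 (614 to 944 FPKM), the mannose receptor gene Mrc1 (256 to 401) and Laptm5 (226.8 to 299.8), and no marker was at 0 on average. Of the 17, 12 had a log2 fold change above 0 and 5 below, the lowest at −0.95 for a marker that did not pass. After quantile normalization 7 were called higher and 1, not Lyz2, lower. The marker C1qb lost its higher call there (log2 fold change 0.08, adjusted p = 0.369). Fcer1g lost its higher call on leaving out any 1 library (adjusted p = 0.0523 to 0.0991). Without GCA replicate 2 the lower calls numbered 4. The summed level of this marker list, which Lyz2 leads, was 20308 to 22582 FPKM in PBS and 17946 to 19092 in GCA. Of 14 tested stromal and fibroblast markers 4 were lower and none higher: Col1a2, Col3a1, the PDGF receptor gene Pdgfrb and the mesenchymal factor Prrx1. All 16 stromal and fibroblast markers of the list, called or not, summed to 3792 to 4094 FPKM in PBS and 3331 to 3593 in GCA. The call of Col1a2 was lost without PBS replicate 2 (adjusted p = 0.0605) and without each GCA library in turn (0.0905, 0.0529 and 0.0647 for replicates 1 to 3). The part of either shift in the levels of the actin genes was not tested. Genes of the sort gate were at 284 ± 41.4 and 324 ± 33.2 FPKM for Ly6a (Sca-1) and 348 ± 17.6 and 313 ± 21.1 for Itgb1 (CD29) in PBS and GCA (SD, n = 3 each). Ptprc (CD45) was at 12.6 and 13.4 FPKM and Itgam (CD11b) at 39.3 and 30.5, although the gate was against both. Itgam had a log2 fold change of −0.39 (adjusted p = 0.244), and of −0.61 (0.00185) without GCA replicate 2.

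GCA libraries did not stand equally far from PBS. Measured from the PBS mean of each gene, the 36 had a median of −0.13, −0.19 and −0.03 log2 units in GCA replicates 1, 2 and 3, and of −0.01 to 0.00 in the PBS libraries. GCA replicate 3 was thus the closest to PBS and replicate 2 the farthest. The stromal markers gave −0.10, −0.21 and −0.09 in the same libraries, and the macrophage markers 0.12, 0.24 and 0.07. All genes tested stayed between −0.004 and 0.02. The part of these shifts between libraries in the result was not tested.

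**Figure D2:**
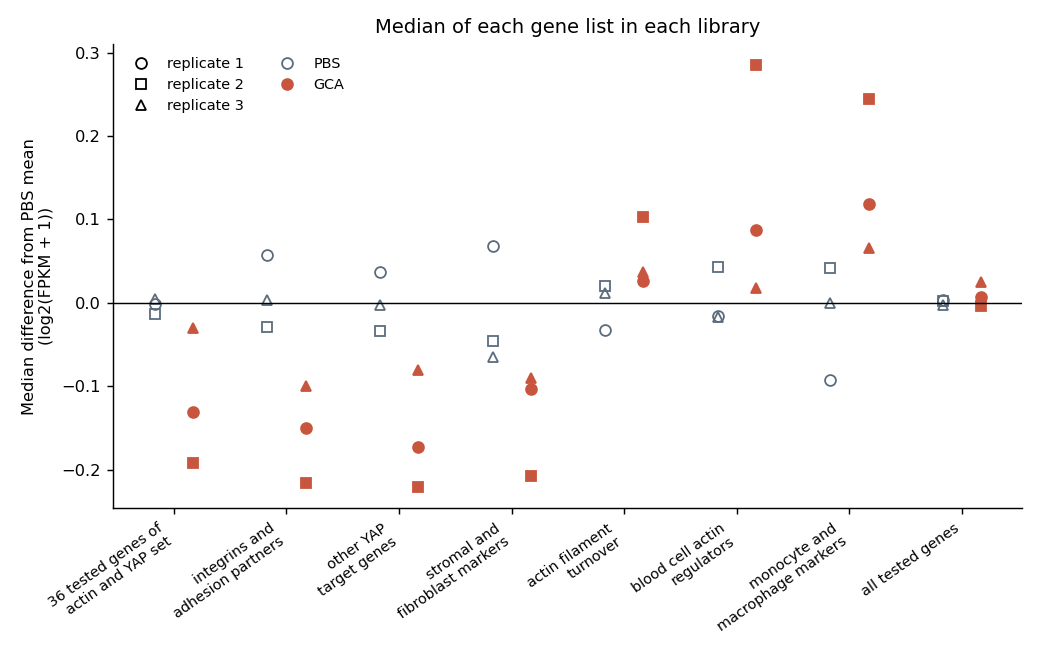
Median difference of each gene list from its PBS mean, in log2(FPKM + 1), for each library; open symbols are PBS, filled symbols GCA, and shapes give the replicate number. In the 36 actin and YAP genes, GCA replicate 2 lies lowest at −0.19 and GCA replicate 3 nearest to PBS at −0.03, and the macrophage list has GCA replicate 2 highest at 0.24.

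Per length of transcript, Actb, the main cytoplasmic beta-actin, was the highest at a mean of 899 FPKM in PBS, followed by Acta2 at 525 and Actg1 at 408. Tpm4 at 246 came next, then Ccn1, and their PBS libraries (234 to 252 and 188 to 215 FPKM) did not overlap. Lowest of the tested members were Tead2 at 3.49 FPKM, Lats2 at 5.19, Tead1 at 6.90, Myh10 at 7.61 and Yap1 at 7.99; in PBS the libraries of Myh10 overlapped those of Tead1 and those of Yap1.

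**Figure D3:**
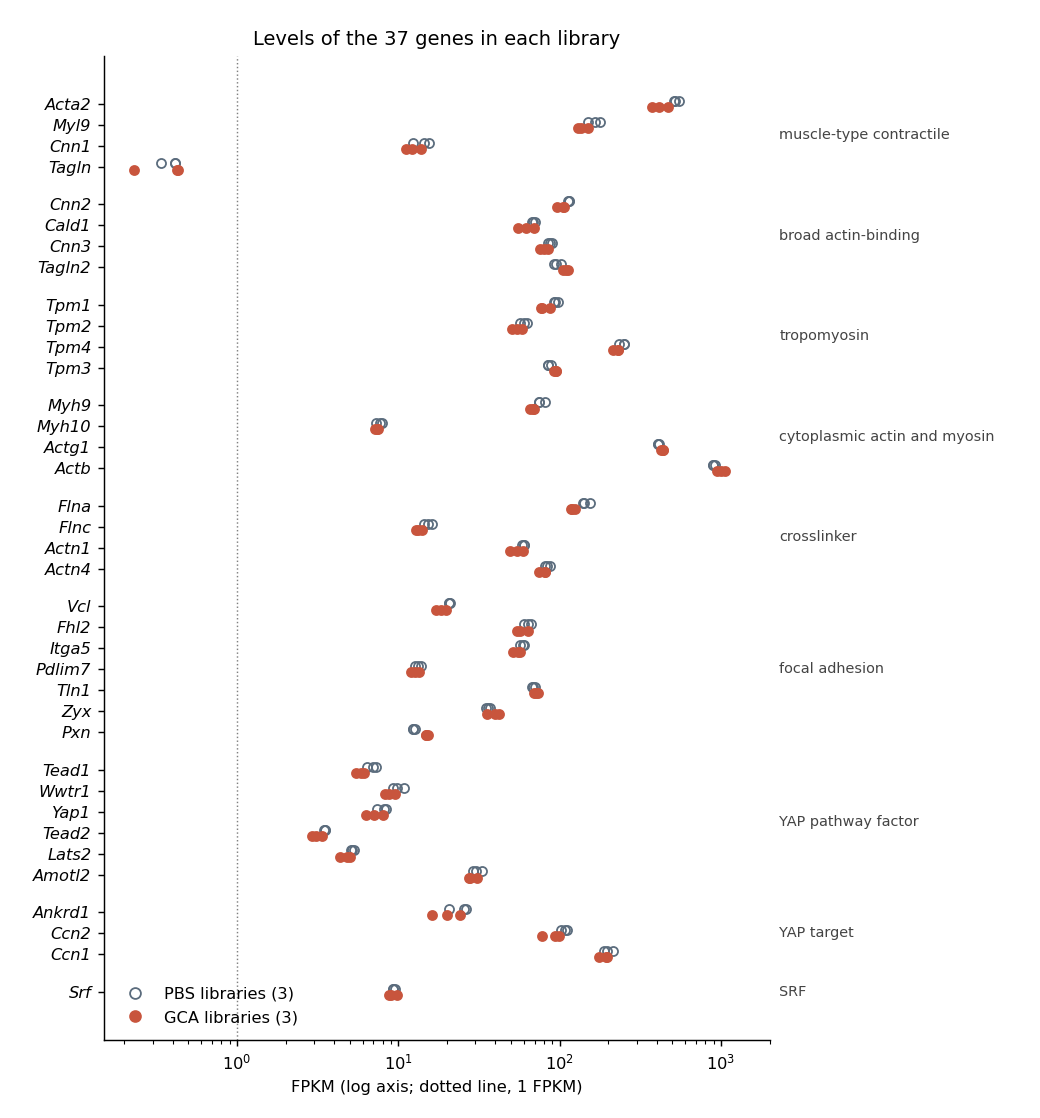
Level of each of the 37 genes in FPKM on a log axis, grouped by role; open circles are the 3 PBS libraries and filled circles the 3 GCA libraries. Most pairs of groups lie close together, and Tagln alone lies left of the dotted line at 1 FPKM.

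Of the 3 tested genes of the muscle-type contractile apparatus Acta2 alone passed. Acta2 (ENSMUSG00000035783, GRCm38 chr19:34241090-34255590) encodes smooth muscle alpha-actin, which activated fibroblasts and pericytes use for force. It stood at 510.0, 517 and 548 FPKM in the PBS libraries, in order of replicate, and at 413, 373 and 466 in the GCA libraries. Every GCA library lay below every PBS library, and the mean was 20.5% lower. On the log2 scale it fell by 0.34 (SE 0.080, adjusted p = 0.0244, limma). Without PBS replicates 1, 2 and 3 in turn the adjusted p was 0.06, 0.0678 and 0.083, without GCA replicate 1 it was 0.0739, and with no filter on low genes 0.0918.

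Myl9, the regulatory myosin light chain of smooth muscle and stress fibers, was at 149, 166 and 177 FPKM in PBS and 135, 129 and 149 in GCA. The groups overlapped, with PBS replicate 1 just under GCA replicate 3. Its log2 fold change of −0.25 had an adjusted p of 0.0625, which was 0.0269 with the replicate number as a block, 0.0365 without PBS replicate 1, 0.0478 without GCA replicate 3, 0.04 among genes averaging at least 5 FPKM and 0.0231 with limma-voom on recovered fragments. Cnn1, the calponin of smooth muscle, averaged 14.1 ± 1.63 FPKM in PBS libraries and 12.4 ± 1.38 in GCA libraries, with overlapping groups (adjusted p = 0.284). Tagln, transgelin, an actin-binding protein usually abundant beside Acta2, was listed at only 0.339 to 0.416 FPKM in PBS and 0.229 to 0.432 in GCA. In GENCODE M21 67.9% of the exon bases of Tagln lie under exons of other genes, 62.4% under those of the antisense gene Gm48529, which was itself at 0.221 to 0.613 FPKM. The sources used here do not say how fragments in such overlaps were assigned, so the level of Tagln is uncertain.

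Markers of smooth muscle were at mixed levels. Myh11, the smooth muscle myosin heavy chain, averaged 0.757 FPKM in PBS libraries and 0.861 in GCA libraries, and desmin (Des) 0.458 and 0.563. Of the 10 smooth muscle and pericyte markers 6 were tested and 1 fell, 16.7% of those tested against 17.9% of all genes. It was Notch3, which marks pericytes, from 7.28 to 5.24 FPKM (adjusted p = 0.0124, and 0.0572 with no filter). Rgs5 of the same list went the other way, with a log2 fold change of 0.20 (adjusted p = 0.112), and Lmod1 had one of −0.18 (0.267). Of the 6 tested, 4 had a log2 fold change below 0 and 2 above. Actg2, the enteric gamma-actin, was at 71.2 ± 2.97 and 59.2 ± 7.76 FPKM with an adjusted p of 0.075, which was 0.0183 without GCA replicate 3 and 0.0283 with the replicate number as a block. The summed level of the list was 101 to 106 FPKM in PBS and 79.9 to 99.8 in GCA. None of the 7 skeletal and cardiac muscle genes in the files reached 1 FPKM, and Actc1 and Myh3 were listed at 0 in all GCA libraries. The summed level of the 7 was nonetheless higher in GCA, at 1.19 to 1.36 FPKM in PBS and 1.55 to 1.95 in GCA.

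The wider actin-binding relatives of these proteins were at 68.9 to 114 FPKM on average in PBS. Cnn2, the calponin of nonmuscle cells, was at 113, 115 and 115 FPKM in PBS and 105, 96.6 and 107 in GCA. Its GCA values all lay below PBS, by 10.0% on average (log2 −0.15, adjusted p = 0.0726), and the adjusted p was 0.0367 after quantile normalization. Cnn3, another calponin, was 7.99% lower (adjusted p = 0.162) and Cald1, caldesmon, which damps actomyosin, was 9.68% lower (0.21). Both had overlapping groups. Tagln2, a relative of transgelin that is also abundant in blood cells, went the other way, at 94.7, 102 and 92.6 FPKM in PBS and 109, 112 and 104 in GCA. Each GCA library of Tagln2 was above PBS, with a log2 fold change of 0.17 (adjusted p = 0.0617, and 0.0487 with the replicate number as a block).

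Tropomyosins are the coiled coils that line actin filaments, and 1 of the 4 passed. Tpm1 (ENSMUSG00000032366, chr9:67022590-67049406) was at 92.6, 92.9 and 97.5 FPKM in PBS and 77.5, 76.9 and 86.7 in GCA. No GCA library reached the PBS range, and the mean was 14.8% lower (log2 −0.23, SE 0.057, adjusted p = 0.0283). Leaving out PBS replicate 1, 2 or 3 gave 0.0596, 0.0728 or 0.101, leaving out GCA replicate 1 or 2 gave 0.0971 or 0.0602, and using no filter gave 0.0916. Tpm4, the most abundant of the family, was at 234, 252 and 251 FPKM in PBS and 230, 214 and 230 in GCA, just separate (adjusted p = 0.132). Tpm2 was 9.22% lower with overlapping groups (0.179). Tpm3 was 9.52% higher in the mean and separate in every library, at 85.8 ± 2.18 FPKM in PBS and 94.0 ± 1.51 in GCA (adjusted p = 0.0715). Of the 100-base stretches of Tpm3 transcripts 15.8% also occur in Tpm3-rs7, a copy listed at 17.6 to 20.4 FPKM, so part of the level could be split between them.

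In a ratio within a library, scaling by a total cancels, but quantile normalization does not. Tpm1 stood at 1.10 ± 0.051 times the FPKM of Tpm3 in PBS and 0.856 ± 0.073 times in GCA (SD, n = 3 each). The ratio ran from 1.05 to 1.15 in PBS and from 0.809 to 0.94 in GCA, so the groups were separate. Of 13 such pairs computed, 5 were lower in every GCA library, 1 was higher and 7 overlapped. Tpm2 to Tpm3 went from 0.700 ± 0.052 to 0.580 ± 0.050 and Tpm4 to Tpm3 from 2.86 ± 0.104 to 2.39 ± 0.127, also without overlap. Acta2 to Actb was 0.574, 0.562 and 0.617 in PBS and 0.411, 0.353 and 0.490 in GCA, a pair of separate groups. Actg1 to Actb went from 0.454 ± 0.004 to 0.430 ± 0.018, and Myh10 to Myh9 from 0.099 ± 0.003 up to 0.108 ± 0.004. After quantile normalization the log2 fold change was 0.09 for Actg1 and −0.01 for Actb, so the fall of their ratio hangs on the scaling. The calponin ratio Cnn1 to Cnn3, at 0.161 ± 0.017 and 0.155 ± 0.013, overlapped, as did Cnn2 to Cnn3, Tagln to Tagln2, Flnc to Flna, Actn4 to Actn1, Tead2 to Tead1 and Wwtr1 to Yap1. The ratios are given as a description, with no test; with 3 libraries against 3 an exact permutation test cannot go below p = 0.1.

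**Figure D4:**
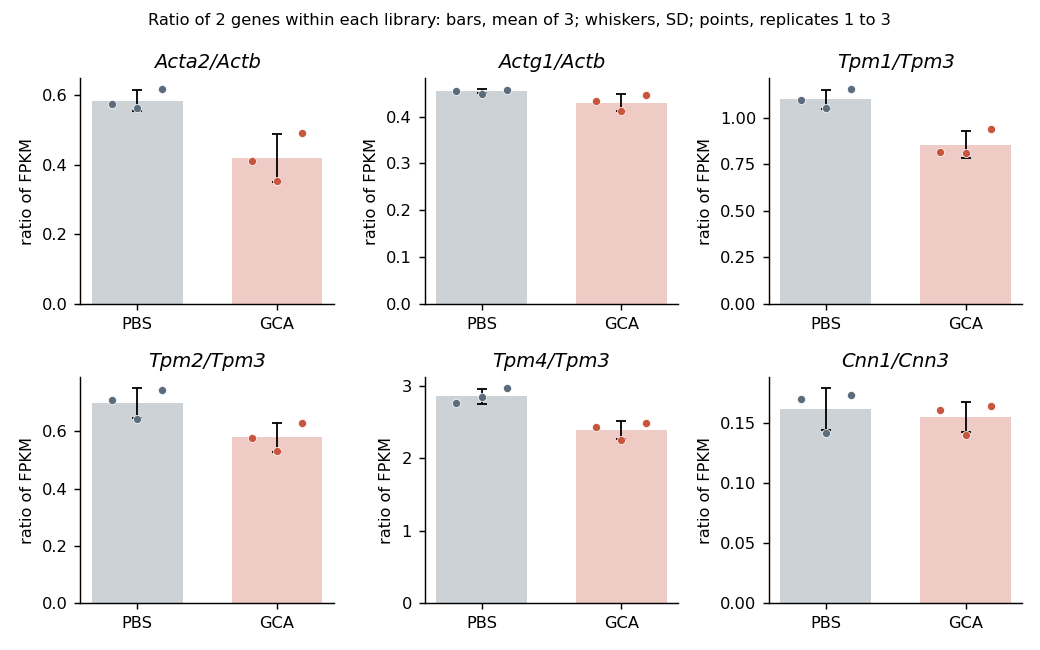
Ratio of the FPKM of 2 genes in each library for 6 of the 13 pairs, with bars for the mean of 3 libraries from 0, whiskers for the SD and points for replicates 1 to 3. Acta2 to Actb, Actg1 to Actb and the ratios of Tpm1, Tpm2 and Tpm4 to Tpm3 are lower in each GCA library than in each PBS library, and Cnn1 to Cnn3 overlaps.

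None of the cytoplasmic actins and nonmuscle myosins passed, but with limma-voom on recovered fragments Actb was called higher (adjusted p = 0.0421) and Myh9 lower (0.0319). Actb was at 889, 920.1 and 889 FPKM in PBS and 1005, 1057 and 951 in GCA, and Actg1, the gamma-actin beside it in every cell, at 405, 413 and 407 and 435, 435 and 424. As deposited, both had all GCA libraries above PBS, with log2 fold changes of 0.16 (adjusted p = 0.0784) and 0.08 (0.239). For Actb the fold change was −0.01 after quantile normalization, so its direction hangs on the scaling. Of the 100-base stretches of Actg1 transcripts 29.9% occur in other genes, most in the copy Gm12715 (9.03 to 11.2 FPKM), against 0.644% for Actb. Myh9, the heavy chain of the main nonmuscle myosin, was at 81.1, 74.4 and 74.1 FPKM in PBS and 65.6, 68.5 and 69.3 in GCA. Its GCA libraries were all below PBS (log2 −0.17, adjusted p = 0.0545), with 0.0391 after median centring and 0.0407 among genes averaging at least 5 FPKM. Myh10, the heavy chain of a second nonmuscle myosin, was at 7.61 ± 0.359 and 7.34 ± 0.122 FPKM and overlapped (adjusted p = 0.605).

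All 4 crosslinkers had lower means under GCA. Flna (ENSMUSG00000031328, chrX:74223461-74249820), filamin A, which ties actin filaments into networks and to integrins, was at 154, 141 and 140.0 FPKM in PBS and 119, 124 and 117 in GCA. The groups were well apart, 17.4% in the mean, a log2 difference of −0.27 (SE 0.053, adjusted p = 0.011). That call held in all 15 alternatives run, with adjusted p-values of 0.00185 to 0.042. Flnc, the filamin of muscle, was at 16.1, 14.5 and 15.3 FPKM in PBS and 13.3, 12.8 and 14.1 in GCA. It was also separate, but with an adjusted p of 0.0679, and 0.0426 after quantile normalization and 0.0441 after median centring. Actn1 and Actn4, the nonmuscle alpha-actinins, were 8.74% and 5.81% lower with overlapping groups (adjusted p = 0.197 and 0.288).

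Of the 7 focal adhesion genes 1 rose and none fell. Pxn (ENSMUSG00000029528, chr5:115506676-115555987), paxillin, a scaffold for adhesion kinases, was the one member that rose. Its PBS libraries held 12.3, 12.3 and 12.7 FPKM and its GCA libraries 14.9, 15.2 and 14.9. The 2 groups were narrow and far apart, 20.6% in the mean (log2 0.25, SE 0.044, adjusted p = 0.00774), and the call held in all 15 alternatives (adjusted p = 0.00132 to 0.0326). Vcl, vinculin, which couples talin to actin, had GCA values of 17.2, 18.5 and 19.9 FPKM, all below PBS at 20.8 ± 0.203 (adjusted p = 0.0896). Without GCA replicate 3 that was 0.0494. A stretch of 25.5% of its exon bases is shared with the opposite gene Ap3m1. Zyx, zyxin, a sensor of strained filaments, was at 36.1 ± 0.981 and 39.2 ± 3.43 FPKM (adjusted p = 0.27, and 0.0494 without GCA replicate 2). Talin (Tln1), at 68.7 and 71.2 FPKM, and the LIM protein gene Pdlim7, at 13.2 and 12.7, differed by 3.54% and −3.75%, with log2 intervals of −0.05 to 0.15 and −0.19 to 0.08. Fhl2, a LIM cofactor found at adhesions and in the nucleus, was 8.43% lower (0.228), and Itga5, the alpha chain of the fibronectin receptor, 6.83% lower (0.221), both with overlap.

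**Figure D5:**
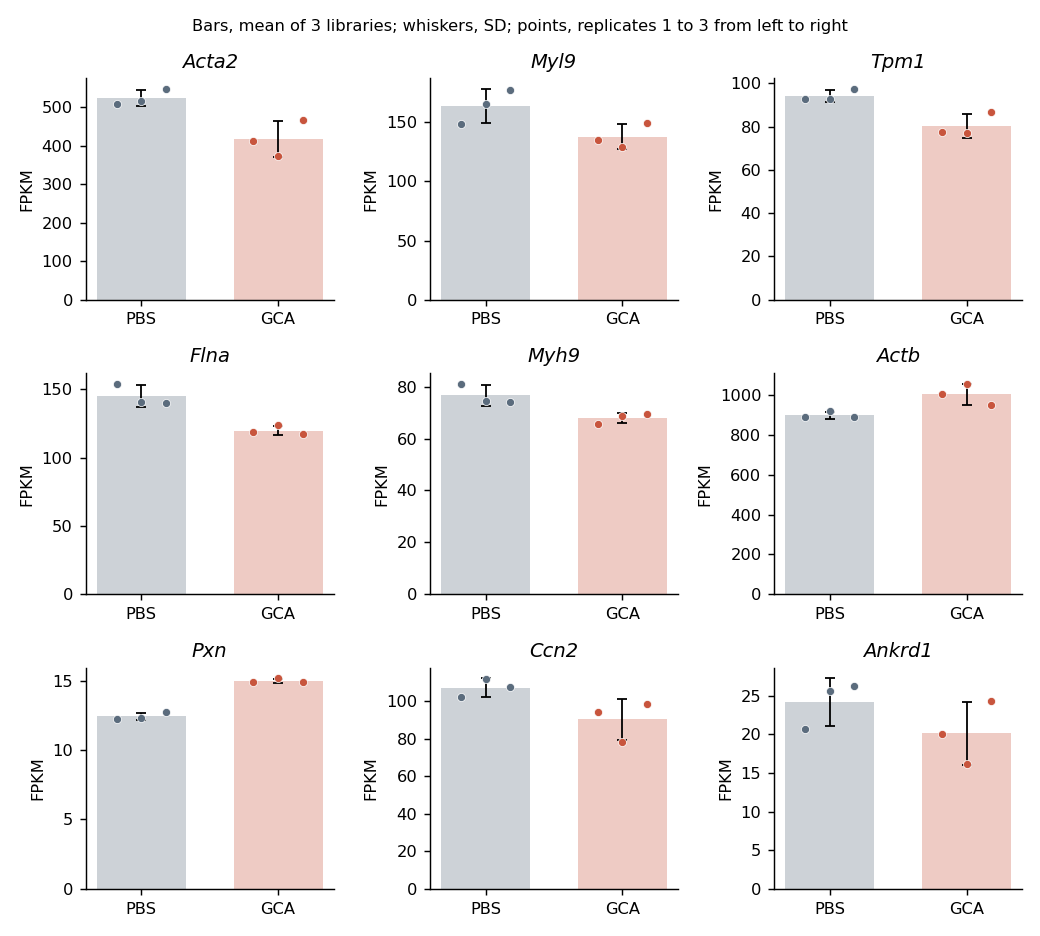
FPKM of 9 genes in each library; bars are means of 3 libraries from 0, whiskers SD, points replicates 1 to 3. GCA points of Acta2, Tpm1, Flna, Myh9 and Ccn2 all lie below the PBS points, those of Actb and Pxn all lie above (for Actb, not after quantile normalization, where its log2 fold change was −0.01), and Myl9 and Ankrd1 overlap.

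Every one of the 6 genes of the YAP complex and its regulators had a lower mean in GCA, and none passed. Yap1 was at 8.38, 7.37 and 8.21 FPKM in PBS and 7.11, 6.31 and 8.01 in GCA, with overlap (adjusted p = 0.274). The gene of TAZ, Wwtr1, was at 10.9, 9.29 and 9.82 and 9.50, 8.27 and 8.72 (adjusted p = 0.162). Tead1, a DNA-binding partner of both, came closest to the threshold, at 7.30, 6.43 and 6.97 FPKM in PBS and 5.88, 5.51 and 6.11 in GCA. Its groups were separate (log2 −0.21, adjusted p = 0.0553), and it passed after quantile normalization (0.0332), after median centring (0.0377), among genes averaging at least 5 FPKM (0.0409) and with limma-voom on recovered fragments (0.0134). Tead2 was 10.5% lower (0.229) and the kinase Lats2, which inhibits YAP, 9.04% lower (0.235), each without overlap. For Lats2 42.4% of the exon bases are shared with the gene Gm49361 on the same strand. Amotl2, an angiomotin that binds YAP and is also its target, was 6.6% lower with overlap (0.346).

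Classical YAP targets were lower in the mean too, with GCA replicate 2 the lowest library in each. Ccn2, a matricellular protein also called CTGF, was at 102, 112 and 108 FPKM in PBS and 94.1, 78.0 and 98.6 in GCA. Its GCA values were all below PBS, 15.8% in the mean (log2 −0.25, adjusted p = 0.0853), and with limma-voom on recovered fragments the adjusted p was 0.0456. Without GCA replicate 2 the log2 fold change was −0.15. The opposite-strand gene Gm15270, at most 0.0805 FPKM, covers 23.2% of its exon bases. Ankrd1, an ankyrin repeat protein of muscle and stretched cells, was at 20.7, 25.6 and 26.2 and 20.0, 16.1 and 24.3 FPKM. It had the widest interval of the 36, −0.65 to 0.12, around a log2 fold change of −0.26 (adjusted p = 0.307), and −0.12 or −0.40 on leaving out GCA replicate 2 or 3. Ccn1, or CYR61, was at 215, 197 and 188 and 194, 176 and 196 FPKM and overlapped (log2 −0.08, interval −0.24 to 0.07). Leaving out PBS replicate 1 or GCA replicate 2 gave Ccn1 −0.03, and leaving out PBS replicate 3 gave −0.13. Srf itself was at 9.37 ± 0.114 and 9.20 ± 0.595 FPKM, with a log2 fold change of −0.02 (above 0 without GCA replicate 1) and an interval of −0.15 to 0.10.

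Other genes of the same pathways were taken from lists and counted without a test of the list. These counts stand against 17.9% of all genes tested that passed, and 10.3% to 17.4% on leaving out 1 library. Of 18 tested genes of the Hippo cascade and its TEAD partners, 4 fell and none rose: Limd1, Mob1b, Amotl1 and the kinase gene Stk3, each by 0.21 to 0.22 log2 units. The count was 0 without PBS replicate 2 or 3 and 1 without PBS replicate 1. On leaving out GCA replicate 1, 2 or 3 it was 1, 2 or 1. The median of the 18 was −0.13. Of 18 further YAP target genes 4 fell and 2 rose, with a median of −0.14. Gadd45a, a stress gene, fell from 4.75 ± 0.135 to 2.50 ± 0.506 FPKM and the membrane repair gene Myof from 33.9 ± 0.794 to 28.2 ± 0.206. Crim1 and Rbms3 were the other two, named after their values were seen. The risers were Birc5, which is also a gene of cell division, and Tgfbr2, the type II receptor of TGF-beta (adjusted p = 0.0123, and 0.052 without PBS replicate 2). For Crim1 the adjusted p of 0.0262 became 0.0743 or 0.0884 on leaving out PBS replicate 1 or 3, and 0.0567, 0.0587 or 0.0636 on leaving out GCA replicate 1, 2 or 3.

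In the MRTF and SRF list none of 17 tested genes passed in limma, 2 had an unadjusted p under 0.05, limma-voom on recovered fragments called 2 lower, and the median was −0.07. The ETS factor Elk3, at 10.8 and 9.29 FPKM, had an adjusted p of 0.0574, and Synpo2, a stress fiber protein, at 1.87 and 1.25 FPKM, one of 0.0595. Both passed after quantile normalization (0.0378 and 0.0468) and after median centring (0.0427 and 0.0464), which gave 2 lower in the list.

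Of 23 tested integrins and adhesion partners 6 fell, 2 rose and 15 did not pass, with a median of −0.15. Itga11, a collagen receptor chain of fibroblasts, fell from 60.9 ± 3.38 to 44.0 ± 1.08 FPKM (log2 −0.46, adjusted p = 0.00127), and Itgav, the alpha-v chain, from 17.7 ± 0.604 to 13.1 ± 0.506 (adjusted p = 0.00179). Bcar1, the adaptor p130Cas, fell from 12.3 ± 0.761 to 9.61 ± 0.582 (adjusted p = 0.0111). Tns1, tensin, which links integrins to actin, rose from 39.0 ± 2.14 to 53.7 ± 2.39 FPKM (adjusted p = 0.00189). These 4 calls held in all 15 alternatives. Itga4, an integrin chain of blood cells named after its values were seen, was the other riser (adjusted p = 0.0323). That call was lost on leaving out PBS replicate 2 or 3 (0.0831 or 0.108) or GCA replicate 1 or 3 (0.106 or 0.0789). The lower calls were 4 without PBS replicate 1 or 3.

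Of 27 tested genes of actin filament turnover 7 rose, 3 fell and 17 did not pass, and the median was 0.07. Arpc3, of the complex that branches filaments, rose from 91.8 ± 4.23 to 118 ± 6.29 FPKM and the capping subunit Capzb from 139 ± 2.87 to 168 ± 4.05. Pfn1, profilin, which feeds monomers to growing ends, rose from 263 ± 6.46 to 300.4 ± 7.89. Gsn, the severing protein gelsolin, fell from 336 ± 8.45 to 276 ± 10.8, and Cfl2 and Pfn2, named after their values were seen, were the other two that fell. The 7 higher calls became 5 after quantile normalization or median centring, and 2 on leaving out any 1 PBS library. On leaving out GCA replicate 1, 2 or 3 they became 2, 5 or 4. The 3 lower calls became 1 without any 1 PBS library, GCA replicate 1 or GCA replicate 2. Pfn1 was among those lost, at 0.0512, 0.0712 or 0.0585 on leaving out PBS replicate 1, 2 or 3 and 0.087 on leaving out GCA replicate 1.

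Actin regulators typical of blood cells were also present, at a summed 1059 to 1104 FPKM in PBS and 1098 to 1288 in GCA, highest in GCA replicate 2. Of 16 tested 4 rose and 1 fell, with a median of 0.13. Cotl1, which binds filaments in leukocytes, rose from 140.5 ± 2.84 to 200.3 ± 3.25 FPKM (log2 0.51, adjusted p = 0.000396). Dock2, an activator of Rac in leukocytes, rose from 13.7 to 16.8, and the Ena/VASP protein gene Evl from 16.6 to 21.8. Nckap1l, named after its values were seen, rose as well; its adjusted p was 0.0601 or 0.069 on leaving out PBS replicate 1 or 3 and 0.0587 on leaving out GCA replicate 3. Capg, a gelsolin relative of macrophages, fell from 154 ± 3.18 to 131 ± 3.59 FPKM. In the same libraries 8 of 17 macrophage markers were higher and 1 lower, and their part in the levels of Actb, Tagln2 and the turnover genes was not tested.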

How the data were processed

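The authors deposited 1 table per library with 1 value per Ensembl gene, in FPKM. The unit is not named in headers or labels and was read from the values: multiplied by exon length in GENCODE M21 and by 1 total per library, 90.8% to 91.0% of the values above 0 in each library gave whole fragments within 0.02. For Acta2, Itga5, Ankrd1 and Srf they were whole at other lengths, so those levels rest on another gene model. The aligner Bowtie 0.12.2 is named with mm8 and mm9 as builds, per the submitters' processing notes. For the counting tool, strand setting and annotation: not given in the sources used here. Coordinates are from GENCODE M21 on GRCm38, attached by identifier.

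Of 27263 genes, 27204 matched GENCODE M21, and the 11984 with a mean of at least 1 FPKM were tested with limma 3.58.1 (R 4.3.3, trend and robust moderation) on log2(FPKM + 1), treatment as the only term, two-sided, Benjamini-Hochberg adjusted, threshold 0.05. The step was tested on simulated data, whose changes were all larger than those of the 37 actin and YAP genes. That test therefore does not speak for changes as small as theirs. Named are all 37 actin and YAP genes, up to 4 tested genes of each list by smallest p and the genes of the sort gate. Outside that rule stand Myh11, Des, Actc1 and Myh3, which were not tested, and C1qb and Fcer1g. So do the genes marked as named after their values were seen. One list of related genes is not reported here. These genes and the lists were chosen with earlier results of these data known. Sharing was counted in 100-base stretches of GENCODE transcripts. The alternatives were a replicate block, quantile normalization, median centring, other filters and pseudocounts, limma without trend and robust moderation, leaving out each library and, chosen after seeing the data, limma-voom on fragments recovered from the FPKM. Plots were made with Python 3.11.15.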

Additional observations from a re-analysis of the deposited data

How the results depend on the processing

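Deviations of PBS and GCA libraries with the same replicate number correlated at 0.082, 0.0287 and 0.0676 across genes. Other pairs gave −0.0815 to 0.0231, so each library correlated best with its own number. Whether the numbers pair the libraries is not settled by these low values, and the main test used no block. With the replicate number as a block 2094 of all genes passed, against 2151, and of the 36 tested actin and YAP genes 2 were higher and 4 lower, against 1 and 3. Leaving out 1 library gave 1232 to 2088 genes, 1 to 2 of the 36 higher, 1 to 5 lower and a median of −0.16 to −0.08. With no filter 1075 genes passed, and 1 of the 36 was higher and 1 lower. A filter at a mean of 5 FPKM gave 2 higher and 6 lower, quantile normalization 6 lower, median centring 7 lower, and limma-voom on recovered fragments 3 higher and 8 lower. The share of tested genes called in those 4 settings was 23.5%, 19.4%, 22.2% and 30.6% of the actin and YAP genes and 25.4%, 18.6%, 18.3% and 22.3% of all genes. The cause of these shifts was not tested. Flna and Pxn kept their calls in all 15 alternatives, Acta2 in 10 and Tpm1 in 9. The sign of Actb turned after quantile normalization and that of Srf without GCA replicate 1, neither with a call. Low genes such as Tead2 carry counting error as well as the spread between 3 libraries a group. Without GCA replicate 2, the log2 fold changes of Actn1 (−0.07), Actn4 (−0.05), Cald1 (−0.07), Itga5 (−0.06), Lats2 (−0.07), Tpm2 (−0.08) and Yap1 (−0.07), none called, were smaller by over 1.5 times.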
